A study of Mus musculus with 4 samples.

Results

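The sperm tail of mammals carries a pair of structures around its axoneme that other cilia lack. The outer dense fibres run beside the microtubule doublets and stiffen the tail, and the fibrous sheath wraps the principal piece and anchors protein kinase A and glycolytic enzymes. Their proteins are assembled in spermatids, after meiosis, so most of their genes are known for late expression in the testis. The 10 genes described here were chosen by name from the 24411 genes in each file. They are *Akap3*, *Akap4*, *Akap14* and *Fscb* (fibrous sheath proteins or A-kinase anchoring proteins), *Ropn1*, *Ropn1l* and *Spa17* (small proteins that share a domain with the regulatory subunit of protein kinase A and bind A-kinase anchoring proteins), and *Odf1*, *Odf2* and *Odf3* (named for the outer dense fibres).

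Poly(A) RNA was measured in GFP-positive cells sorted at postnatal day 18 from 2 testes of control *Zfp541*+/− mice and 2 testes labelled *Zfp541* KO, with 1 testis per library. The KO allele lacks exons 1 to 13 of this gene for a germ cell zinc finger protein. All 4 testes carried *Rec8-3xFLAG-HA-p2A-GFP*, a knock-in at the gene of the meiotic cohesin REC8, from which GFP is made together with that protein. One control was heterozygous and the other homozygous for the knock-in, and both testes labelled *Zfp541* KO were homozygous. The labels do not say which control is which, so the effect of the knock-in dose cannot be told apart from the difference between the controls. As both testes labelled *Zfp541* KO were homozygous, the dose also differed between the groups, and its part in their differences cannot be told apart. The labels give a mixed strain of C57BL/6 and CBA, and the study's methods give C57BL/6. The comparison asks how the transcriptome of meiotic prophase cells differs when ZFP541 is lost.

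The values were TPM, a measure of transcript abundance that is corrected for transcript length, so that levels can be compared between genes, and that sums to the same total in every library. They keep no sequencing depth, so no counting error can be given, and a value of 0 means only that a gene is listed at 0. The level of *Zfp541* itself was 112 TPM in control 1, 72.2 TPM in control 2, 136 TPM in library 1 labelled *Zfp541* KO and 151 TPM in library 2 labelled *Zfp541* KO, called libraries labelled KO from here on. The transcript of the targeted gene was not lower where the label says KO, and the value per gene does not separate the deleted exons from the rest, so it is no check of the labels, which every direction below follows. In bulk RNA, fewer cells of a type and less RNA per cell cannot be told apart. The label of male germ cells was checked against markers of other testis cells. The 5 macrophage markers summed to 2045 and 21.6 TPM (controls) and to 1687 and 1251 TPM (labelled KO), and the 5 Leydig cell markers to 2873 and 18.0 TPM and to 324 and 491 TPM. The sums over the 4 libraries lay between 114 and 221 TPM for 5 Sertoli cell markers, 20.3 and 71.5 TPM for 4 red blood cell markers, and 3.10 and 10.9 TPM for 2 peritubular markers. None of these markers was at 0 in every library. Control 2 thus stood apart by its low macrophage and Leydig cell RNA, and control 1 by its high Leydig cell RNA.

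The members fell into a group that was abundant at this stage and a group that was almost silent. *Ropn1l*, *Spa17* and *Odf2* had mean levels of 682, 505 and 388 TPM over the 4 libraries, each above at least 98.4% of all genes listed. *Akap3* followed at 8.29 TPM. The other 6 members had means between 0 and 0.44 TPM and did not reach the mean of 1 TPM required for the test, which 59.4% of all genes listed reached. *Ropn1l* and *Ropn1* encode closely related ropporin proteins, and they lay at opposite ends of the order, since *Ropn1* was listed at 0 in all 4 libraries.

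The order of the abundant genes was not fixed. *Ropn1l* was the highest in both controls and in library 2 labelled KO, and *Spa17* was the highest in library 1 labelled KO. *Odf2* was above *Spa17* in control 1 only. In the controls the 3 genes were at 971 ± 298, 639 ± 3.49 and 528 ± 319 TPM for *Ropn1l*, *Spa17* and *Odf2* (SD, n = 2), and in the libraries labelled KO at 393 ± 96.5, 370.5 ± 38.7 and 247 ± 43.2 TPM (SD, n = 2). In the controls the mean of *Spa17* lay within the SD of *Odf2*, and in the libraries labelled KO the means of *Ropn1l* and *Spa17* each lay within the SD of the other. *Akap3* was below all 3 in every library and above the 6 low members in every library.

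**Figure D1:**
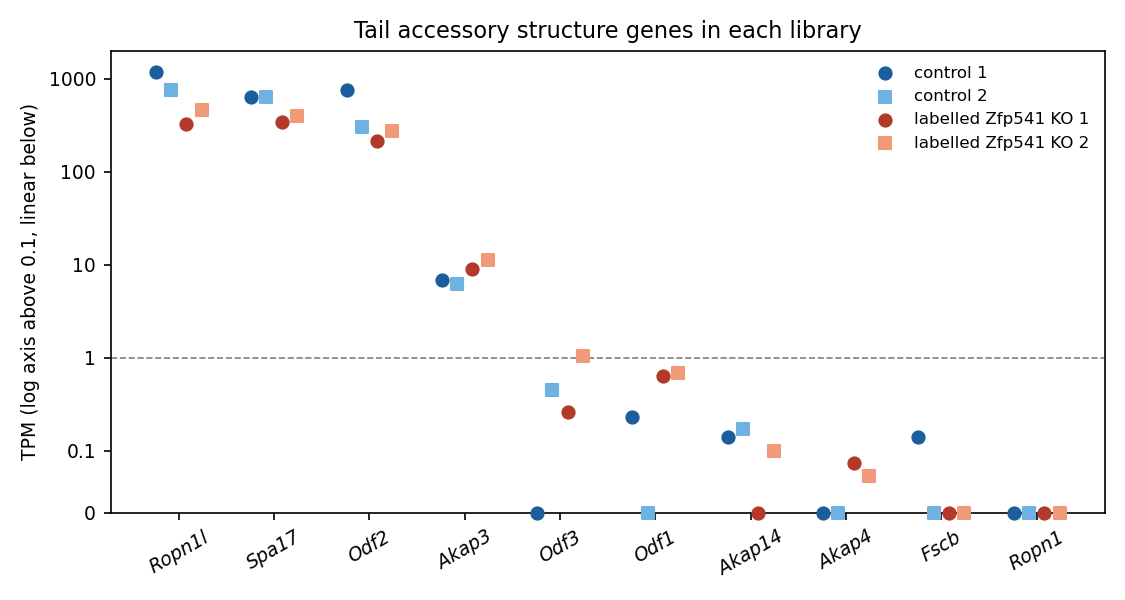
TPM of the 10 tail accessory structure genes in each of the 4 libraries, ordered by mean level; the axis is logarithmic above 0.1 TPM and linear below, and the dashed line marks 1 TPM. *Ropn1l*, *Spa17* and *Odf2* lie between 216 and 1182 TPM, *Akap3* between 6.17 and 11.2 TPM, and the other 6 members at or below 1.05 TPM.

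The RefSeq promoters of 9 members (all but *Odf1*) differed along the same line. The 250 bases before each annotated start of *Ropn1l*, *Spa17* and *Odf2* held 18, 13 and 22 to 35 CpG dinucleotides (4 annotated starts for *Odf2*), while those of *Akap3*, *Akap4* and *Fscb* held 0, and those of *Odf3*, *Ropn1* and *Akap14* held 1, 2 and 4. The median over 32851 promoter windows was 6. Across all genes in the files with such windows, 88.7% of 8092 genes with at least 10 CpG in every window had a mean of at least 1 TPM in these cells, against 22.6% of 5431 genes with at most 4. These limits were chosen after the values were seen, genes are not independent replicates, and the contrast is given as a description. *Akap3* was above 1 TPM with no CpG in its window, so this limit does not divide the members as their CpG counts do. The share of genes as abundant as *Ropn1l*, *Spa17* and *Odf2* was not computed. The windows of the abundant members, of the silent paralogue *Ropn1*, of the X-linked *Akap4* and of *Akap3* are shown so that this difference can be seen. They are in GRCm38.p6, read 5′ to 3′ in the direction of the gene, with CpG in capitals. For *Odf2* and *Akap4* the most upstream start with a window is used, and for *Spa17* the first of a pair listed 1 base apart. For *Odf2* and *Ropn1* the windows lie within the full span of the gene, and for *Spa17* partly within it.
Ropn1l (chr15:31453690-31453939, reverse strand): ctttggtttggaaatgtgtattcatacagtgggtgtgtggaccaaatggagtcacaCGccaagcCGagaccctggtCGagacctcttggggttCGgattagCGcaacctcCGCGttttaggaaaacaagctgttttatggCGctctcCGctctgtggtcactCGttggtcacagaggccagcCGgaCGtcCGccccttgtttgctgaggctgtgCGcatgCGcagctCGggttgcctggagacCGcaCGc
Spa17 (chr9:37613722-37613971, reverse strand): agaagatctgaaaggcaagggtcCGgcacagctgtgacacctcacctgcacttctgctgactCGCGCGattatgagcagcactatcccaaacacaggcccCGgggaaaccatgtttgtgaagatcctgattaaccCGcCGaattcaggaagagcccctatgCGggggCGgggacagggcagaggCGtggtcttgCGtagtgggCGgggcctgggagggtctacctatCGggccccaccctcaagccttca
Odf2 (chr2:29889470-29889719, forward strand): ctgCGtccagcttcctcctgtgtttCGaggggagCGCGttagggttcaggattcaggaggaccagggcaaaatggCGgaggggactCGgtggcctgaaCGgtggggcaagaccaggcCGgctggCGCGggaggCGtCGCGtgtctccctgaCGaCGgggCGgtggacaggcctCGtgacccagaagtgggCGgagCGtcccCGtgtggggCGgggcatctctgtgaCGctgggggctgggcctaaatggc
Ropn1 (chr16:34650961-34651210, forward strand): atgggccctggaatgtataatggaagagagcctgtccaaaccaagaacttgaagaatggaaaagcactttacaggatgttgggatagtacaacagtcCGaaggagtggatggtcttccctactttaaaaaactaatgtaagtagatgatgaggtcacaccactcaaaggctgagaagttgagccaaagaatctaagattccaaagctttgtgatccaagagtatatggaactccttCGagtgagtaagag
Akap4 (chrX:7067265-7067514, forward strand): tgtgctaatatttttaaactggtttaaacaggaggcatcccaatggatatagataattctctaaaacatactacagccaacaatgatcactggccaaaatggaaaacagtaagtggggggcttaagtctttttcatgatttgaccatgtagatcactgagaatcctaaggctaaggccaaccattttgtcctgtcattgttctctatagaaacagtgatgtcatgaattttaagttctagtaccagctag
Akap3 (chr6:126852848-126853097, forward strand): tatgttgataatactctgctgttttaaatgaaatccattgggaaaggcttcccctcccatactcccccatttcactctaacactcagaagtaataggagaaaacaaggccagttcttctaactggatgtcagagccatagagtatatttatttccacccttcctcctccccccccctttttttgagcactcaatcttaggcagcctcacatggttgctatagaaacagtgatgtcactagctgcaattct

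Short motifs were searched on both strands of the same windows. The GC box, GGGCGG, to which SP family factors bind, was found in the windows of *Ropn1l*, *Spa17* and *Odf2* (3 of its 4 windows) and in 32.7% of all windows. The palindromic site of the factor NRF1 stood in the window of *Ropn1l* and in 0.782% of all windows. A cAMP response element with 1 base left free, TGANGTCA, stood in the windows of *Akap3*, *Akap4* (the upstream start), *Fscb* and *Ropn1* and in 7.49% of all windows. *Akap3* also held a loose form of the X box of RFX factors, which 0.828% of all windows held. AACTG, the core of the MYB site, was found in windows of *Akap3*, *Akap4*, *Akap14*, *Fscb*, *Odf2* and *Odf3* and in 39.1% of all windows, and TATAAA in none of the members' windows and in 12.4% of all. A match is only a description of the letters.

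**Figure D2:**
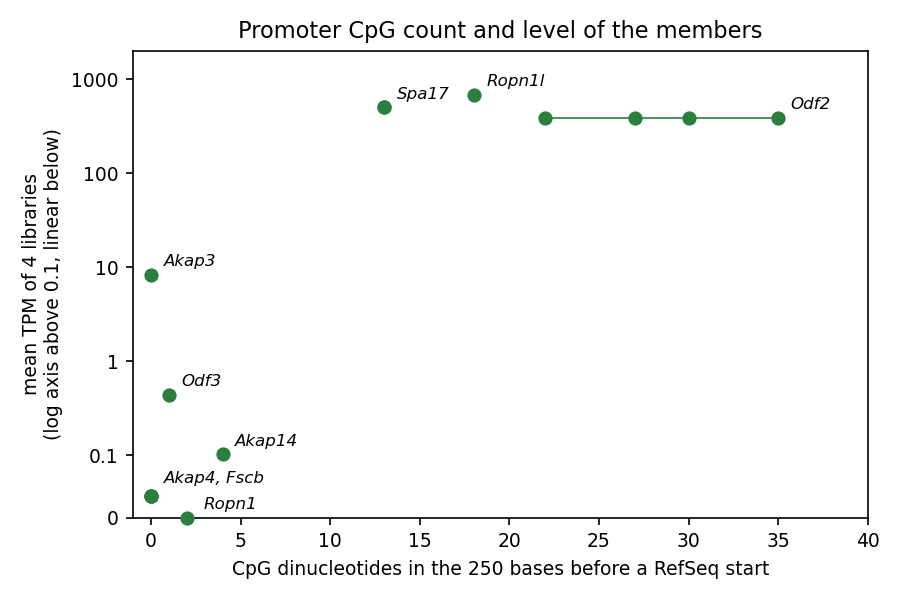
Number of CpG dinucleotides in the 250 bases before each RefSeq start against the mean TPM of the 4 libraries for the 9 members with a promoter window; dots joined by a line are the starts of *Odf2*. The 3 genes with at least 13 CpG lie between 388 and 682 TPM, and the 6 genes with at most 4 lie at or below 8.29 TPM.

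*Ropn1l* encodes a ropporin-like protein of the sheath and the radial spokes, and its gene lies on chromosome 15 from 31441210 to 31453689. Controls 1 and 2 held 1182 and 760.4 TPM, against 324 and 461 TPM in libraries 1 and 2 labelled KO. Both libraries labelled KO were below both controls. It was 2.45-fold lower on the log2(TPM + 1) scale, with a log2 fold change of -1.29 ± 0.35 (SE) at an adjusted p of 0.315 in limma over 14512 genes. The 4 differences between a library labelled KO and a control ran from -1.86 to -0.72, and the controls differed from each other by 0.64.

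*Spa17* encodes sperm protein 17, which is also found in cilia elsewhere, and its gene lies on chromosome 9 from 37603294 to 37613916. It was at 637 and 642 TPM (controls) and 343 and 398 TPM (labelled KO). The controls were nearly equal here, and both were above both other libraries. It was 1.73-fold lower, with a log2 fold change of -0.79 ± 0.21 (SE) at an adjusted p of 0.315 in limma, and the 4 differences between pairs of libraries stayed between -0.90 and -0.68. Over 10433 of its bases the gene lies opposite *Siae*, an acetylesterase gene on the other strand at 7.58 to 12.7 TPM, and the strand setting of the counting is not given in the sources used here.

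*Odf2* encodes a coiled-coil protein of the outer dense fibres that also serves the appendages of the mother centriole in other cells. Its gene lies on chromosome 2 from 29889014 to 29931746. It was at 754 and 303 TPM (controls) and 216 and 277 TPM (labelled KO). Control 1 stood far above the other 3 libraries, which were close together. The log2 fold change was -0.96 ± 0.50 (SE) at an adjusted p of 0.432 in limma. The difference was -1.80 and -1.44 against control 1 but -0.48 and -0.13 against control 2, while the controls differed from each other by 1.31. Without control 1 the log2 fold change was -0.31, and without control 2 it was -1.62. The TPM are per gene and do not separate the transcripts from its several starts.

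*Akap3*, on chromosome 6 from 126853098 to 126874308, encodes an anchoring protein of the fibrous sheath. It was at 6.8 and 6.17 TPM (controls) and 8.97 and 11.2 TPM (labelled KO). Of the tested members it alone had both libraries labelled KO above both controls. Its log2 fold change was 0.56 ± 0.35 (SE) at an adjusted p of 0.503 in limma, where the median over all genes tested was 0.28. Scaled by median ratios, which brought that median to -0.015, *Akap3* was at 0.26, and after quantile normalization, where its groups overlapped, at 0.34.

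**Figure D3:**
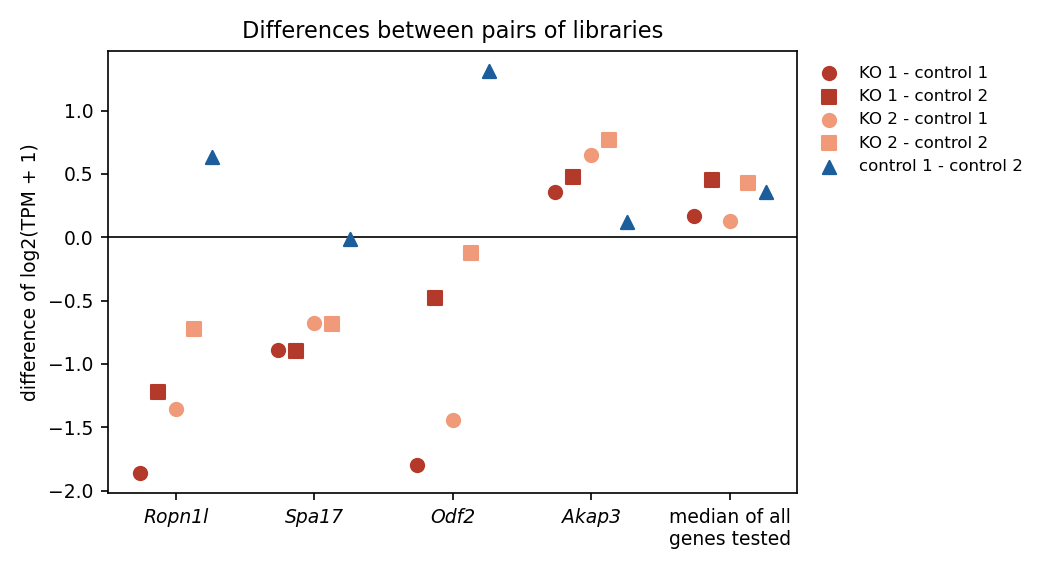
Differences of log2(TPM + 1) between single libraries for the 4 members tested and for the median of all genes tested; KO stands for a library labelled *Zfp541* KO, and triangles give control 1 minus control 2. All 4 differences are below 0 for *Ropn1l*, *Spa17* and *Odf2* and above 0 for *Akap3*. Against control 2, *Odf2* is at -0.48 and -0.13 and *Akap3* at 0.48 and 0.77. The median of all genes tested is 0.45 and 0.43 there.

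By limma, 0 of the 4 tested members passed an FDR of 0.05, as did 0 of 14512 genes (0%), where the smallest adjusted p was 0.310. At an unadjusted p under 0.05, *Ropn1l* and *Spa17* were lower, as were 3.73% of all genes, and 10.7% of all genes were higher. *Ropn1l* was the 1 member at least 2-fold lower, against 5.22% of all genes, and 0 members were at least 2-fold higher, against 8.99%. Groups that did not overlap were found in 3 of the tested members with lower values, against 12.1% of all genes, and in *Akap3* with higher values, against 38.6%. The log2 fold changes of *Ropn1l*, *Odf2* and *Spa17* were below those of all but 3.70%, 5.52% and 7.07% of the genes tested. After median-ratio scaling these 3 genes were at -1.63, -1.30 and -1.13, so each was at least 2-fold lower on that scale, against 7.91% of all genes, and 0 members were at least 2-fold higher, against 4.09%. Between the controls, *Odf2* was the 1 tested member at least 2-fold apart, higher in control 1 as were 25.9% of all genes, and 0 members were at least 2-fold lower there, against 5.41%. With 2 samples a group, an exact permutation test of a single gene cannot give a p under 0.33.

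The calls depended on the controls. Without control 1, *Ropn1l* (adjusted p = 0.0417) and *Spa17* (adjusted p = 0.0178) passed the FDR in limma, and without control 2, *Odf2* (0.0232), *Ropn1l* (0.0296) and *Spa17* (0.0335) did. In these fits the lone control is assumed to vary as little as the libraries labelled KO, which lay close together, and 6985 and 4123 genes passed in all.

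**Figure D4:**
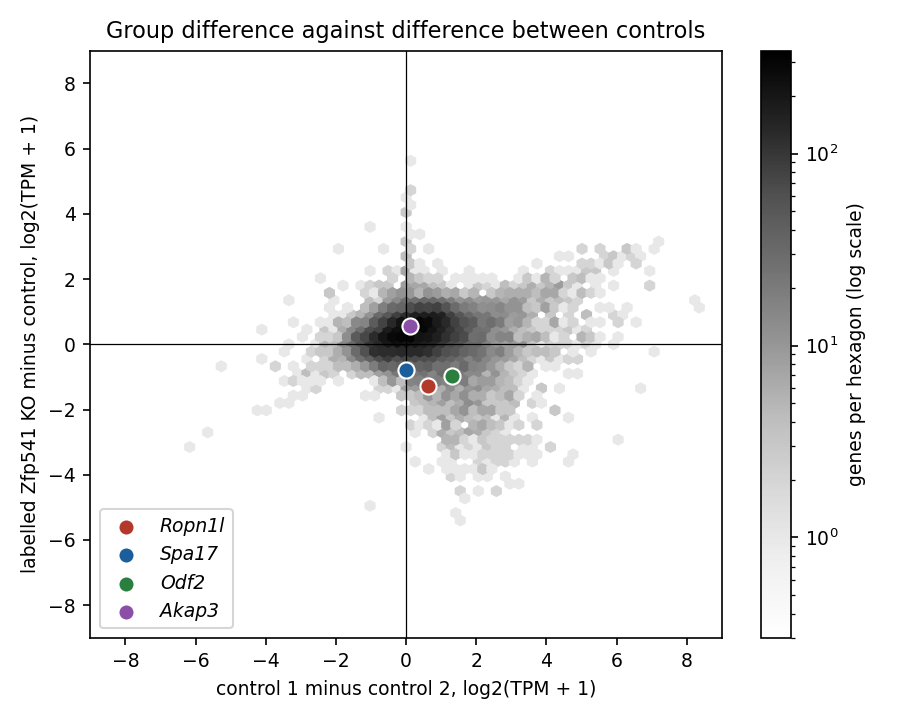
The difference between groups, on the vertical axis, against the difference between the controls, on the horizontal axis, both in log2(TPM + 1), for 14512 genes binned in hexagons shaded by number on a log scale. *Spa17* sits at -0.011 between controls and -0.79 between groups, while *Odf2* at 1.31 and -0.96 and *Ropn1l* at 0.64 and -1.29 also differ between the controls.

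Levels of spermatocyte markers also differed between the libraries. The 6 pachytene markers summed to 1464 and 538 TPM (controls) and to 453 and 637 TPM (labelled KO), and the 6 markers had a median log2 fold change of -1.05, with 3 of them not overlapping and lower, against 12.1% of all genes. As with *Odf2*, control 1 was far above the rest. The 5 leptotene and zygotene markers summed to 812 and 1115 TPM (controls) and to 1753 and 1804 TPM (labelled KO), and 4 of them did not overlap and were higher, against 38.6% of all genes. The 5 spermatogonial markers summed to between 181 and 370 TPM. The 4 round spermatid markers summed to 7.79 and 13.9 TPM (controls) and to 28.2 and 27.9 TPM (labelled KO), nearly all of it from *Spaca1*, while the other 3 did not exceed 1.04 TPM. None of these was at 0 in every library. The part of cell composition in the levels of the members was not tested.

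The 6 low members were of every class. *Akap4*, the main protein of the fibrous sheath, on the X chromosome from 7067515 to 7078609, was listed at 0 in both controls and at 0.08 and 0.06 TPM (labelled KO). *Akap14*, also on the X chromosome, from 37150698 to 37168842, was at 0.14 and 0.17 TPM (controls) and 0 and 0.10 TPM (labelled KO). The sex chromosomes are known to be silenced in pachytene spermatocytes, and the part of this in these levels was not tested.

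*Fscb*, a sheath protein that binds CABYR, on chromosome 12 from 64471333 to 64474898, was at 0.14 TPM in control 1 and listed at 0 in the other 3 libraries. *Odf1*, the main protein of the fibres, on chromosome 15 from 38219203 to 38226735, was at 0.23 and 0 TPM (controls) and 0.64 and 0.69 TPM (labelled KO). *Odf3*, on chromosome 7 from 140847916 to 140850925, was at 0 and 0.45 TPM (controls) and 0.26 and 1.05 TPM (labelled KO). It overlaps a gene model on the other strand that is not listed in the files, and the strand setting of the counting is not known. *Ropn1*, on chromosome 16 from 34649832 to 34678610, was listed at 0 throughout. Differences at this level cannot be read without counts, and no fold is given. Among late spermatid transcripts, *Prm1*, *Prm2*, *Tnp1* and *Tnp2*, which encode the proteins that replace histones in spermatids, summed to 9.96 and 0 TPM (controls) and to 1.49 and 1.77 TPM (labelled KO). Control 1 was the highest of the 4 libraries, with 7.59 TPM of *Tnp2* alone.

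Other genes of the same structures were read from lists of related genes. Of 8 further sheath and fibre genes, 7 were in the files and 4 were tested, of which 0 passed the FDR in limma. *Odf4*, an outer dense fibre gene, was at 224 and 71.5 TPM (controls) and 46.3 and 59.2 TPM (labelled KO), with a log2 fold change of -1.26 ± 0.60 (SE) at an adjusted p of 0.406 in limma. It had the pattern of *Odf2*, with control 1 high and the other libraries close. *Odf2l*, a centrosomal relative of *Odf2*, went the other way, at 68.9 and 54.4 TPM (controls) and 100.2 and 109 TPM (labelled KO), for a log2 fold change of 0.76 at an adjusted p of 0.315 in limma. *Fsip1*, a sheath-interacting protein gene, was at 18.5 and 20.9 TPM (controls) and 11.9 and 14.5 TPM (labelled KO). *Cabyr*, which encodes a calcium-binding sheath protein with the domain of the ropporins, was at 2.99 and 2.63 TPM (controls) and 3.93 and 3.5 TPM (labelled KO). Its log2 fold change was 0.31, where the median over all genes tested was 0.28. *Odf3l1* and *Odf3l2* were listed at 0 throughout, and *Odf3b* did not exceed 1.59 TPM.

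For 5 glycolytic enzymes listed with the sheath, binding to it was not examined. Of these, 4 were tested and 3 were at least 2-fold lower, against 5.22% of all genes, with 0 past the FDR in limma. *Pgk2*, the spermatogenic phosphoglycerate kinase, was at 79.0 and 18.4 TPM (controls) and 1.59 and 2.71 TPM (labelled KO), for a log2 fold change of -3.67 at an adjusted p of 0.310 in limma, which ran from -4.69 to -2.64 with 1 sample left out. *Ldhc*, the testis lactate dehydrogenase, was at 3659 and 1819 TPM (controls) and 768 and 1230 TPM (labelled KO), with a log2 fold change of -1.41 that was -0.90, under 2-fold, without control 1. *Eno4*, the enolase of the sperm tail, was at 25.0 and 14.4 TPM (controls) and 4.75 and 7.67 TPM (labelled KO). *Gapdhs*, the spermatid glyceraldehyde phosphate dehydrogenase, had the one value above 0 among the 4, a log2 fold change of 0.18 that was -0.0031 after median-ratio scaling and -0.091 after quantile normalization.

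Other A-kinase anchoring proteins were set beside *Akap3*, *Akap4* and *Akap14*. Of 12, 11 were tested, 0 passed the FDR in limma, and all 11 had log2 fold changes above 0, as did 69% of all genes tested. Their median was 0.61, and 0.28 after median-ratio scaling, where 10 were above 0, as were 49% of all genes, and *Akap1* was at -0.30. *Akap13* had the largest value, at 16.5 and 7.91 TPM (controls) and 37.7 and 37.5 TPM (labelled KO), for a log2 fold change of 1.63 ± 0.42 (SE) at an adjusted p of 0.311 in limma. *Akap9*, a Golgi and centrosome anchor, was also at least 2-fold higher, which makes 2 of the 11, against 8.99% of all genes. Its log2 fold change of 1.20 was 0.89 after median-ratio scaling. *Akap3*, at 0.56, was thus close to the median of these genes.

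The 6 subunits of protein kinase A, which the anchors hold, stayed near the level of all genes. Their median log2 fold change was 0.23, and -0.044 after median-ratio scaling, and 0 passed the FDR in limma. At least 2-fold lower were 0, against 5.22% of all genes, and at least 2-fold higher 0, against 8.99%. *Prkar2a*, a regulatory subunit that binds these anchors, had the highest value, 0.84, and *Prkaca*, the catalytic subunit used by sperm, the lowest, -0.17. Among 6 partners of fibre proteins and of ropporin, 0 passed the FDR in limma. In this list 1 was at least 2-fold lower, against 5.22% of all genes, and 0 were at least 2-fold higher, against 8.99%. *Ccdc42*, a gene needed for the tail whose protein binds ODF proteins, was at 97.1 and 37.3 TPM (controls) and 0.34 and 1.4 TPM (labelled KO), for a log2 fold change of -5.10 ± 0.63 (SE) at an adjusted p of 0.310 in limma. *Rhpn2* had the highest value of this list, 0.53.

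**Figure D5:**
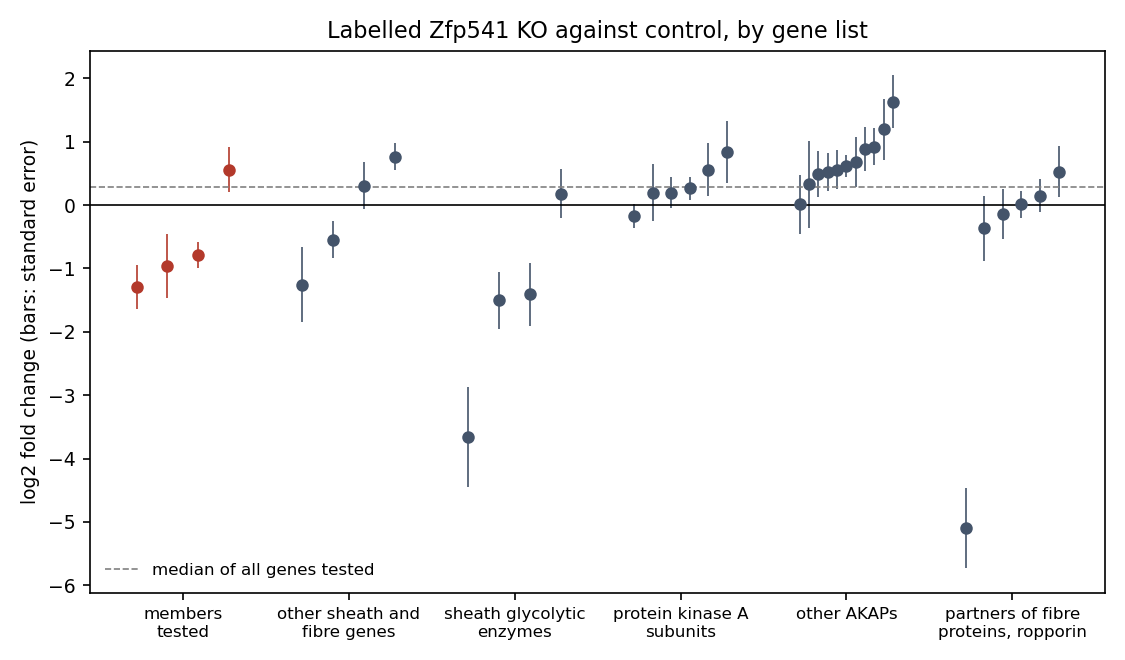
Log2 fold changes of single genes with their standard errors from limma, for the 4 members tested and for 5 lists of related genes (AKAP, A-kinase anchoring protein), with the median of all genes tested, 0.28, as a dashed line. *Ropn1l*, *Odf2* and *Spa17* lie below 0 with *Odf4*, *Ldhc*, *Eno4*, *Pgk2* and *Ccdc42*, and less far with *Fsip1*, *Spag4*, *Prkaca* and *Tssk4*. Of the sheath, fibre and glycolytic genes, *Odf2l*, *Cabyr* and *Gapdhs* lie above 0. The 11 other anchoring protein genes lie above 0 before scaling, and *Akap1* falls below 0 after median-ratio scaling.

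Genes with a like pattern were ranked by the root-mean-square difference of log2(TPM + 1) over the 4 samples, after each gene's own mean was subtracted. Nearest to *Akap3* were *Abcg8* (0.019), *5033403F01Rik* (0.020) and *Ccdc170* (0.031). *Akap4* and *Odf1*, which barely vary on this scale because they are near 0, were nearest to *Slc38a10* (0.012), *Wwc1* (0.014) and *Tox4* (0.018), and to *Dhx15* (0.0069), *Phrf1* (0.011) and *Tmem194* (0.015). Over 4 samples such a ranking always names the closest of 14512 genes, whatever their function, and no distance for other genes is given to compare with. The 3 abundant members were added after their values were seen. *Ropn1l* was nearest to *Ubxn11* (0.034), *Fbxw27* (0.059) and *Fam229b* (0.063). *Spa17* was nearest to *Ift43* (0.030), *Tcea2* (0.033) and *Slc25a43* (0.038). *Odf2* was nearest to *4930593A02Rik* (0.034), *Ptges3l* (0.042) and *Ttll11* (0.061). *Ift43*, an intraflagellar transport gene, was at 198 and 208 TPM (controls) and 112 and 128 TPM (labelled KO). *Tcea2*, nearly as close to *Spa17*, was at 438 and 416 TPM (controls) and 225 and 268 TPM (labelled KO).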

How the data were processed

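GFP-positive cells from 2 control testes and 2 labelled *Zfp541* KO were analysed by their labels. Reads were trimmed by the authors using Trim Galore 0.5.0 (cutadapt 1.16), aligned to UCSC mm10 with STAR 2.6.0a and quantified with RSEM 1.3.1, and TPM per gene were deposited. TPM adds up to 1000000 in a library without its depth, so single values have no known precision. The study's own test within RSEM was not repeated. The 14512 genes whose mean reached 1 TPM were fitted by limma 3.58.1 (R 4.3.3) to log2(TPM + 1), with a mean-variance trend, two-sided, with Benjamini-Hochberg adjustment over all genes tested at an FDR of 0.05. This scale understates the change of low genes. The code was tested on simulated data.

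The members and lists were chosen with earlier results of these data known. Genes named were the members, *Zfp541*, genes of the related lists, markers, and the 3 nearest patterns of *Akap3*, *Akap4* and *Odf1*. *Siae* and the nearest patterns of *Ropn1l*, *Spa17* and *Odf2* were added after values were seen. Same-numbered samples deviated from their group means with a correlation of -0.16 across genes, so the numbers were not taken to pair them. The labels do not say whether both testes labelled KO came from separate mice, so p-values measure only the spread between samples, which may be technical. In the files 27 gene names read as dates, and these rows stayed in the fit. Positions and promoter letters are from RefSeq (GRCm38.p6, the assembly of mm10), and overlaps between genes from GENCODE M21. Alternatives were the pseudocount, filter, scaling, trend, replicate block and leaving out each sample.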

Additional observations from a re-analysis of the deposited data

How the results depend on the processing

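The log2 fold changes of *Ropn1l*, *Spa17*, *Odf2* and *Akap3* kept their direction in all 12 alternatives, from -1.63 to -0.97, -1.13 to -0.68, -1.62 to -0.31 and 0.26 to 0.71. Most of this was fixed in advance. The filters, trend and block leave these values unchanged. As the groups of these members do not overlap, a pseudocount or a sample left out cannot reverse them. Only the scalings could have changed a direction. With the replicate number as a block, limma passed 0 members and 0 genes, with adjusted p of 0.629, 0.638, 0.642 and 0.784 for these members, and it changed no call. The crossed replicate block, added after the correlation of -0.16 between same-numbered samples was seen, passed 87 genes and 0 members. Members at least 2-fold lower numbered 1, and 3 with median-ratio scaling. Non-overlapping higher members numbered 1, against 38.6% of all genes, and 0 with quantile normalization. Without a filter 3 members were higher and 4 lower, through members near 0 whose differences cannot be read without counts. The share of all genes was not computed for that setting. The median of the tested members was -0.88, and -0.095 without a filter, which adds members near 0. The median of all genes went from 0.28 to -0.015 with median-ratio scaling. Genes of the 5 related lists at least 2-fold higher numbered 2, 1 for either scaling and for a pseudocount of 5, and 3 for a pseudocount of 0.1.

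With 1 sample left out, members past the FDR ranged from 0 to 3, all genes past it from 0 to 6985, members at least 2-fold lower from 0 to 2, and related genes at least 2-fold lower from 3 to 5 and higher from 1 to 7, with 3 lower and 7 higher without control 1. Without control 1 the median log2 fold change of all genes tested was 0.44, against 0.28 with all samples. The share of all genes at least 2-fold lower or higher was not computed with a sample left out. The 7 higher related genes thus cannot be told apart from the upward shift of all genes in that fit. The overlap of groups was counted on unchanged TPM where only the pseudocount, trend or block differed. TPM without counts limits what the 6 low members can show.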
